A study of Homo sapiens with 4 samples.

Results

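Mitochondrial ribosomal proteins are the protein subunits of the ribosome inside mitochondria. They are encoded in the nucleus, made in the cytosol and imported, and the finished ribosome makes the few respiratory chain subunits that mitochondrial DNA encodes. Mitochondrial ribosomes hold more protein and less RNA than bacterial ones, so alongside subunits with a bacterial counterpart there are many that bacteria lack. The genes described here were those with a symbol of MRPL (named for the large subunit) or MRPS (named for the small subunit) followed by a number and an optional letter, with pseudogenes left out. They numbered 75 of the 19775 genes that a probe set naming 1 gene represented on the arrays, and the brightest probe set by the mean of all 4 arrays stood for each.

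The arrays measured SW620, a human cell line from a metastasis of a colon adenocarcinoma. Magnetic sorting with a CD133 kit came first, clones were then grown from single cells, and the clones went through the same sort again before total RNA was taken. The CD133+ group is 1 clone (labelled CPC1) on 2 arrays and the CD133- group is 1 clone (labelled CNC1) on 2 arrays, both kept in the same serum-containing medium with no other treatment named. Clone and CD133 status therefore cannot be told apart. The labels do not tie the arrays of one clone to separate cultures, so a p-value here weighs a difference against array-to-array spread that may be technical.

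The labels were checked with PROM1, which encodes CD133. Its log2 signal was 8.46 and 8.73 on the CD133+ arrays against 3.31 and 3.35 on the CD133- arrays. All 9 epithelial markers passed the level filter. So did 5 of 5 fibroblast, 2 of 3 leukocyte and 2 of 3 endothelial markers and the red cell marker HBB. Their levels differed widely. The median log2 signal was 11.44 over the epithelial markers, 4.35 over fibroblast, 3.91 over leukocyte and 4.54 over endothelial markers, and HBB was at 5.50. Single markers overlapped, with the lowest epithelial marker at 4.71 and the highest fibroblast marker, COL1A1, at 6.98. The log2 signals of the 5 fibroblast markers summed to 25.5 and 26.0 on the CD133+ arrays and to 25.4 and 26.0 on the CD133- arrays, and their part in the results was not tested. In the deposited values the upper quartile of CD133- replicate 1 was 6.91, beside 6.61 to 6.71 on the other arrays. After quantile normalization CD133+ replicate 2 had an ACTB 3' over 5' log2 difference, a sign of RNA length, of 1.92. It was 0.69 to 1.16 on the other arrays. The same difference for GAPDH was 0.064 on that array, within the 0.015 to 0.088 of the other arrays. The part of these array differences in the results below was not tested beyond leaving out each array in turn.

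All values below are quantile-normalized log2 signals and all differences are CD133+ minus CD133-. A gene was called changed at a limma p under 0.05 after Benjamini-Hochberg adjustment over the 15820 genes tested, and all 75 mitochondrial ribosomal protein genes were among those tested.

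The mitochondrial ribosomal protein genes differed little between the clones. Of the 75 genes, 1 fell in CD133+ cells, MRPS27, and 0 rose. Among all genes tested 3.74% were called, 2.38% lower and 1.36% higher. The differences ran from -0.98 (MRPL44) to 0.33 (MRPS17), with quartiles of -0.12 and 0.060. Their median was -0.022, with 46 genes below 0 and 29 above, beside a median of 0.058 over all genes tested. MRPL44, MRPS27 and MRPL19 went past 0.5 in size, 3 of 75 genes, where 12.9% of all genes tested went past that size. At an unadjusted limma p under 0.05 there were 11 genes, 3 higher and 8 lower, against 20.7% of all genes.

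These genes were measured with small errors. The median standard error of the difference was 0.10 over the 75 genes, 0.11 over the 3955 tested genes with the highest signal and 0.18 over all genes tested. The 95% confidence interval of the difference lay within a 1.5-fold change in either direction for 67 of the 75 genes (89.3%), for 80.5% of those 3955 bright genes and for 46.3% of all genes tested. Of the bright genes 6.88% went past 0.5 in size and 7.08% were called. Most of the 75 are bright too, with a median at the 90.2 percentile of signal. The median size of the difference between clones, taken between means of 2 arrays, was 0.11. Between the single arrays of a clone it was 0.16 for CD133+ and 0.089 for CD133-. Single arrays vary more than means of 2, so these sizes are not directly comparable. The arrays of the clones did not overlap in 33 genes, 13 higher and 20 lower, with 51.6% not overlapping over all genes tested, 30.4% higher and 21.2% lower. The median signal over the 75 genes was 10.01 and 10.15 in CD133+ cells against 10.00 and 10.08 in CD133- cells. The clones overlapped, and replicate 2 was the higher array in both.

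**Figure D1:**
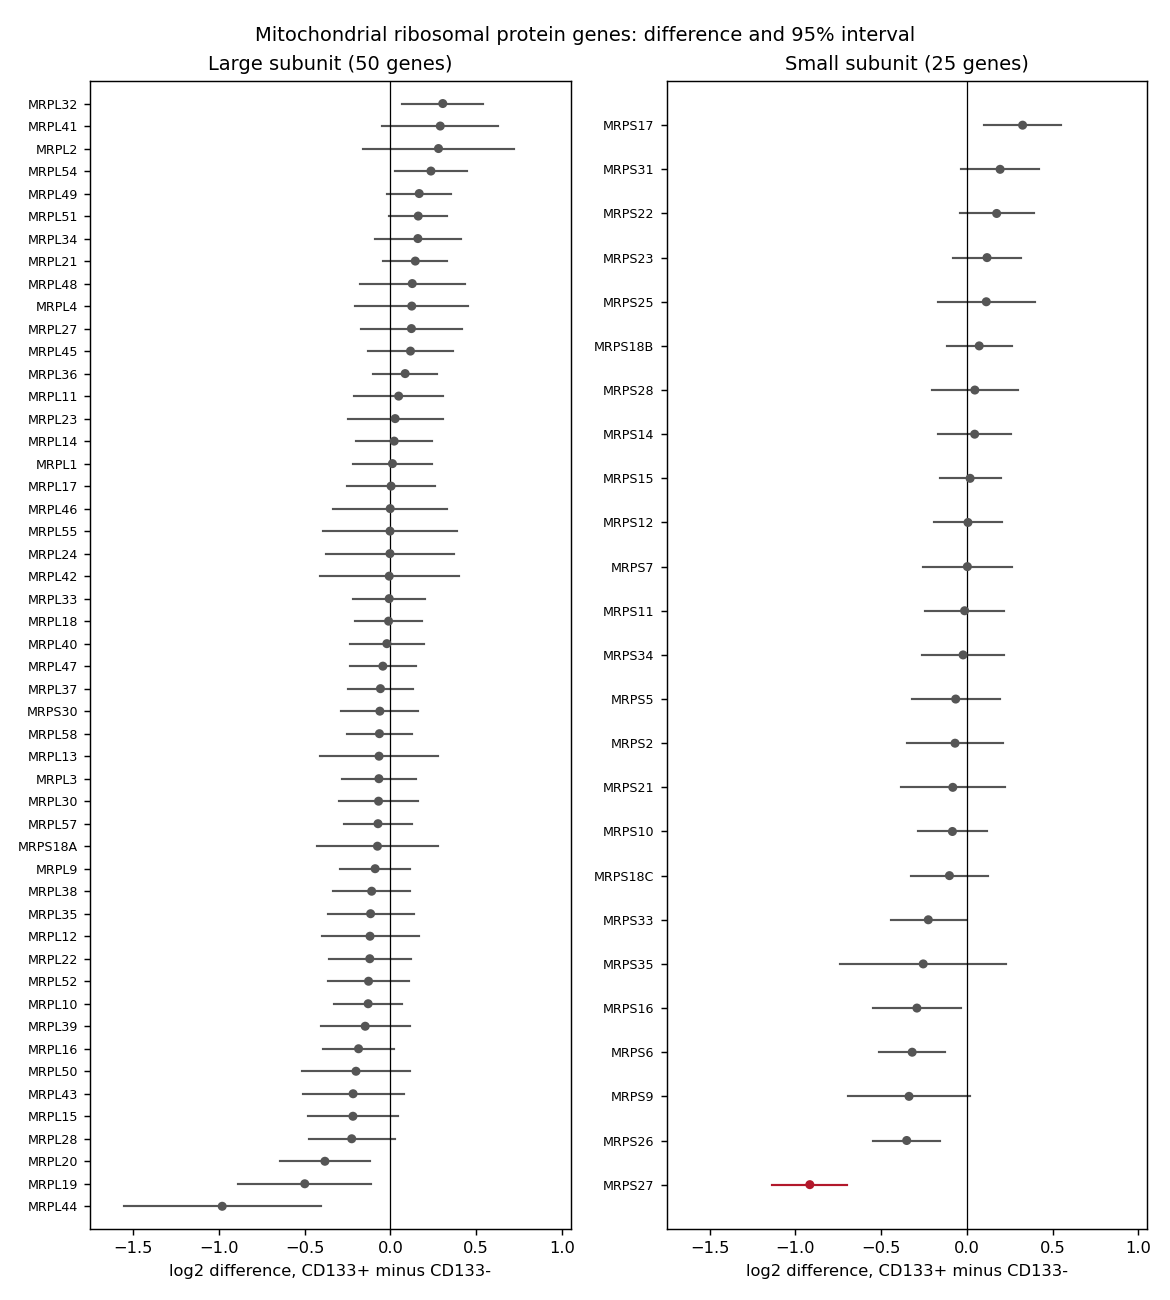
Log2 difference (CD133+ minus CD133-, x axis) of each of the 75 mitochondrial ribosomal protein genes with its 95% interval from limma, ordered within the large (left) and small (right) subunit. Only MRPS27, in red, was called, and most of the other intervals include 0.

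The size of the median moved with the scaling, and its sign turned without 1 array. The median over the 75 genes was -0.074 in the values as deposited and -0.15 with each array centred on its median, where the median over all genes was 0.028 and -0.051, so relative to all genes it was -0.080 in the quantile-normalized values and -0.10 in both others. Without CD133+ replicate 1 it was 0.039 (all genes 0.081) and without CD133+ replicate 2 it was -0.088 (all genes 0.032). Over the 3955 tested genes with the highest signal the median was 0.016.

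The differences were small in both subunits. The 50 genes of the large subunit had a median difference of -0.033 with 0 called, and the 25 genes of the small subunit had a median of -0.022 with MRPS27 called. MRPS30 and MRPS18A were counted with the large subunit, where these proteins sit despite their names. The 43 genes with a bacterial counterpart had a median of -0.013, and the 29 without one had a median of -0.045. MRPS18A, MRPS18B and 1 unclassified gene stood outside these classes. No test was run between these classes.

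Many of these genes hold the same short letters near their starts. The 250 bases before and 50 bases after the start of transcription, from RefSeq (GRCh38.p14), were found for 67 of the 75 genes. They were searched on both strands for letters of the sites of factors known to act on nuclear genes for mitochondrial proteins: CCGGAAG for ETS factors such as GABP, AAGATGGC for YY1, the NRF1 motif with 1 free base, and CACGTG for E-box factors such as MYC. CCGGAAG stood in 28 of the 67 windows (41.8%), against 10.7% of 27305 windows in the table and 16.2% of those of tested genes. AAGATGGC stood in 19 (28.4%), against 3.03% and 4.58%. The NRF1 motif stood in 8 (11.9%, against 6.28% and 9.83%) and CACGTG in 6 (8.96%, against 7.43% and 9.50%). No gene held all 4 kinds, 14 held 2 or 3 kinds, 31 held 1 and 22 held 0.

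The MRPL20 window is shown at length because it holds 2 ETS matches before the start and a YY1 match after it. Its 250 bases before the start (GRCh38.p14, chr1:1407294-1407543, minus strand, 5′ to 3′ in the sense of transcription) are printed with the ETS letters in capitals.
MRPL20: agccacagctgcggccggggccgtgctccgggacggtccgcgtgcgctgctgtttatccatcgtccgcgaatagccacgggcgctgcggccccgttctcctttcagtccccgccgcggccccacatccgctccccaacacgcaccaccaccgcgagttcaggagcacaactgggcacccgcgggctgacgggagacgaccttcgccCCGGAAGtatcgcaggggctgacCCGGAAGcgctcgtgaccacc

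YY1 letters tended to follow the start: 14 of the 20 matches in the 19 genes began after it, while 5 of 37 ETS matches did. The YY1 windows of 30 bases are shown for the genes described below, in the sense of transcription, with the match in capitals. They lie at chr5:72320206-72320235 (minus strand, MRPS27), chr1:1407260-1407289 (minus, MRPL20), chr5:44808949-44808978 (plus, MRPS30), chr6:43687764-43687793 (minus, MRPS18A), chr6:30617852-30617881 (plus, MRPS18B) and chr7:42932143-42932172 (plus, MRPL32, where the match is on the other strand).
MRPS27: tggtacgctccAAGATGGCtgcctccatag
MRPL20: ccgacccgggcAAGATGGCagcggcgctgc
MRPS30: aatcgcgggcaAAGATGGCggcggccaggt
MRPS18A: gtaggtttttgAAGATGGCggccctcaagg
MRPS18B: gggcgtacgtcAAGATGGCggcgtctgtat
MRPL32: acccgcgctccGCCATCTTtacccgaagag
Counted from the start, with negative positions before it, the first base of the match was at 17 in MRPS27, 16 in MRPL20, 14 in MRPS30, 10 in MRPS18A, 24 in MRPS18B and -222 in MRPL32. The YY1 letters contain ATG, the usual first codon, and how many of these matches coincide with a coding start was not tested. The 19 genes with the YY1 letters had differences from -0.92 (MRPS27) to 0.30 (MRPL32) with a median of -0.045, and the 48 without had a median of -0.022.

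ETS matches are shown for 4 more genes, again in the sense of transcription and with the match in capitals, CTTCCGG being the same letters read on the other strand. They lie at chr20:3046003-3046032 (plus, MRPS26), chr13:40771205-40771234 (minus, MRPS31), chr19:3762649-3762678 (plus, MRPL54) and chr3:139343895-139343924 (plus, MRPS22).
MRPS26: ttccccgcgccgCTTCCGGggcacggtggc
MRPS31: gaaggcgccaggCCGGAAGcggaagagagg
MRPL54: ggccactgacgtCTTCCGGaaacgtgcact
MRPS22: atctataagggcCCGGAAGaCTTCCGGccc
These matches began at positions from -87 to -21. MRPS22 holds 2 of them in its printed bases, 1 on each strand, and a further ETS match outside these bases began at 6. The difference was -0.35 in MRPS26 and positive in the other 3, and 0 of the 4 genes were called. The 28 genes with the ETS letters had a median difference of -0.069, with 8 above 0, and the 39 without had a median of -0.0031, with 17 above 0. These medians by motif were taken after the data were seen, with no test. In MRPS9 the NRF1 motif (chr2:105038019-105038048, plus strand) is printed with the match in capitals.
MRPS9: cgcgccattaGCGCCTGCGCcgtctctagg

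MRPS27, a pentatricopeptide-repeat protein of the small subunit with no bacterial counterpart, was the gene that fell (NCBI gene 23107, chromosome 5). Its log2 signal was 9.22 and 9.31 in CD133+ cells against 10.17 and 10.18 in CD133- cells. The replicate arrays lay close together and the clones did not overlap. In bulk RNA such as this, fewer cells with the transcript and less of it per cell cannot be told apart. The difference was -0.92 (SE 0.095, limma adjusted p = 0.00763). Leaving out any 1 array kept the call, with limma adjusted p between 0.00122 and 0.0351. The call was lost when the variance prior was held constant over signal (adjusted p = 0.0760), where 0.107% of all genes were called, and when its 2 probe sets were averaged (-0.45, adjusted p = 0.146), where 1.38% were. Its other probe set had a mean log2 signal of 3.63, below the level of 3.75 under which genes were left out, and a difference of 0.0093.

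MRPL44, a large-subunit protein with a fold like that of RNase III and no bacterial counterpart in the ribosome, had the most negative difference. Its log2 signal was 8.60 and 7.72 in CD133+ cells against 9.01 and 9.27 in CD133- cells. Both CD133+ arrays were lower than both CD133- arrays, but the CD133+ arrays were themselves 0.87 apart. The difference was -0.98 (SE 0.25, limma adjusted p = 0.0730), which did not pass. Its second probe set also had both CD133+ arrays lower, at 5.30 and 4.90 against 6.37 and 6.78, a difference of -1.47. Without CD133+ replicate 1 the gene was at -1.42 and called (adjusted p = 0.000936), and without CD133+ replicate 2 it was at -0.55 and not called (adjusted p = 0.0742).

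MRPL19 and MRPL20, large-subunit proteins with bacterial counterparts, came next on the lower side. MRPL19 was at 8.32 and 8.85 in CD133+ cells against 9.11 and 9.05 in CD133- cells. The difference was -0.50 (SE 0.17, limma adjusted p = 0.149). MRPL20 was at 10.34 and 10.65 against 10.82 and 10.94, a difference of -0.38 (SE 0.11, adjusted p = 0.113). In both genes CD133+ replicate 1 was the lowest array. No array of one clone overlapped the other clone in either gene, where 21.2% of all genes tested were lower with no overlap. Without CD133+ replicate 2, both were called, MRPL19 at -0.76 and MRPL20 at -0.53. Without CD133+ replicate 1 they were at -0.24 (adjusted p = 0.385) and -0.23 (adjusted p = 0.255), so the size of both rests on the choice of CD133+ array. Averaged over its 3 probe sets MRPL20 was at -0.082, the other 2 lying below the level filter.

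The next 4 genes, all of the small subunit, were MRPS26, MRPS9, MRPS6 and MRPS16. MRPS26, with no bacterial counterpart, was at 10.35 and 10.38 in CD133+ cells against 10.75 and 10.69 in CD133- cells. The difference was -0.35 (SE 0.085, limma adjusted p = 0.0631). MRPS6 was at 11.07 and 11.21 against 11.44 and 11.47, a difference of -0.32 (SE 0.083, adjusted p = 0.0802). MRPS16 was at 10.01 and 10.22 against 10.30 and 10.51, a difference of -0.29 (SE 0.11, adjusted p = 0.191). In these 3 genes, picked by the size of their difference, the clones did not overlap. Over all genes tested 21.2% were lower with no overlap. Both pairs of MRPS26 arrays lay close together. The second probe set of MRPS26 went the other way, at 0.16, and the gene was at -0.093 (limma adjusted p = 0.712) when both were averaged. With 1 array left out MRPS16 ran from -0.39 to -0.19. MRPS9 was at 8.84 and 9.22 against 9.22 and 9.52, and its clones overlapped, with a difference of -0.34 (SE 0.16, adjusted p = 0.268) that ran from -0.53 to -0.15 with 1 array left out.

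**Figure D2:**
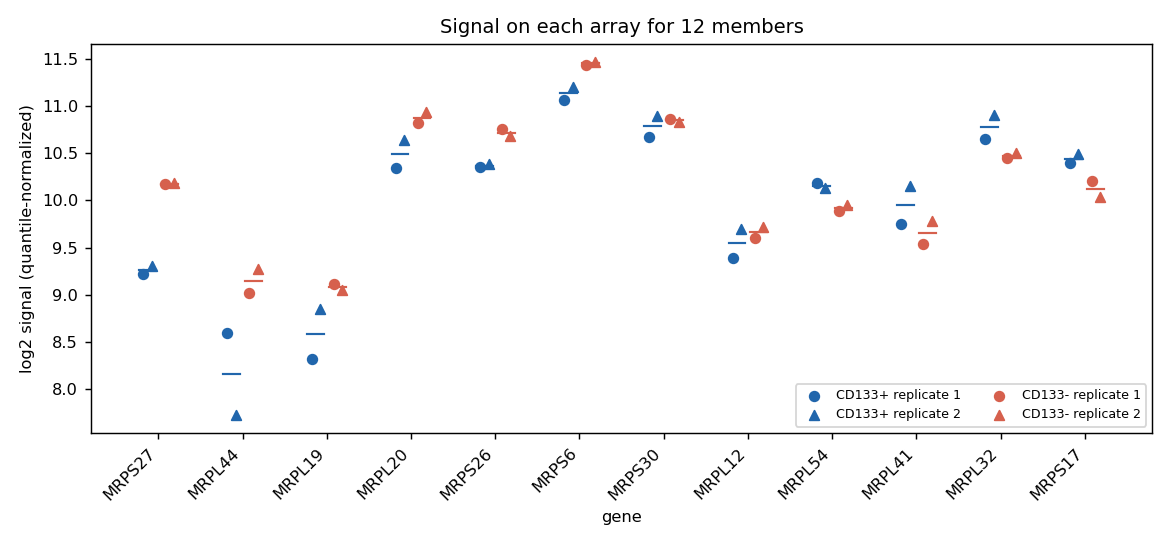
Quantile-normalized log2 signal (y axis) on each of the 4 arrays for 12 of the genes, with a bar at each clone's mean of 2 arrays. Heights of different genes are not comparable, since each has its own probe set. MRPS27 separates the clones by far more than its replicate arrays differ, whereas the CD133+ arrays of MRPL44 are wide apart.

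On the higher side no gene was called. MRPS17, a small-subunit protein that binds ribosomal RNA, was at 10.39 and 10.50 in CD133+ cells against 10.20 and 10.03 in CD133- cells. The difference was 0.33 (SE 0.098, limma adjusted p = 0.117). MRPL32, a large-subunit protein that a mitochondrial protease matures after import, was at 10.65 and 10.90 against 10.45 and 10.50, a difference of 0.30 (SE 0.10, adjusted p = 0.149). The clones did not overlap in either gene, where 30.4% of all genes tested were higher with no overlap. Without CD133+ replicate 1, MRPL32 was called at 0.43, and without CD133+ replicate 2 it was at 0.18 (adjusted p = 0.459).

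The next 6 genes on this side were MRPL41 (0.29), MRPL2 (0.28), MRPL54 (0.24), MRPS31 (0.19), MRPS22 (0.17) and MRPL49 (0.17), with limma adjusted p from 0.191 to 0.444. Of these 6, which were picked by the size of their difference, the clones overlapped in MRPL41 alone. Over all genes tested 30.4% were higher with no overlap. MRPL41 and MRPL2 moved widely with the CD133+ array left out. MRPL41 was at 0.49 without replicate 1 and 0.091 without replicate 2, and MRPL2 was at 0.50 and 0.064. With arrays centred on their median, the 8 genes on the higher side stayed above 0 but shrank to between 0.020 (MRPL2) and 0.21 (MRPS17). MRPL41 has 5 probe sets, of which 4 had a positive difference. The second probe set of MRPL2 was at -0.0020. MRPS31 has 3 probe sets, at 0.19, -0.033 and 0.16 from the brightest down. MRPS22, a small-subunit protein with no bacterial counterpart, has 4 probe sets, and all 4 were positive, from 0.16 to 0.25, so they shared its direction.

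The count of called genes stayed at 1 with no level filter (2.77% of all genes called), a stricter filter at the median (6.88%), the deposited values (2.61%), centred arrays (2.93%) and robust variances (3.87%). Leaving out 1 array changed which genes passed. Without CD133+ replicate 1, MRPL44, MRPS27 and MRPS35 were lower and MRPL32 higher, 4 of 75, with 3.81% of all genes called. Without CD133+ replicate 2, MRPS27, MRPL19, MRPL20, MRPS6 and MRPL15 were lower, 5 of 75, with 3.46% of all genes called. MRPS27 was the single gene called in both. It was also the 1 gene called without CD133- replicate 1, where 0.708% of all genes were called, and without CD133- replicate 2, where 2.22% were. MRPS35 and MRPL15 were named after their values were seen. The call of MRPS35 rests on 1 array. Its CD133+ signals were 11.07 and 10.29 against 10.99 and 10.88, with CD133+ replicate 2 far below the rest.

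Subunits with particular roles had small differences. MRPL12, the stalk protein that also binds the mitochondrial RNA polymerase, was at 9.40 and 9.70 in CD133+ cells against 9.61 and 9.72 in CD133- cells, a difference of -0.12 with a 95% interval from -0.40 to 0.16. MRPL58, a ribosome subunit with peptidyl-tRNA hydrolase activity that frees stalled chains, was at 11.18 and 11.23 against 11.21 and 11.32, a difference of -0.065 with an interval from -0.25 to 0.12. The clones overlapped in both genes.

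The 3 genes of the S18 family, which encode related proteins placed at different sites of the ribosome, had small differences as well. MRPS18A was at -0.076 (95% interval -0.43 to 0.28), MRPS18B at 0.072 (-0.12 to 0.26) and MRPS18C at -0.10 (-0.33 to 0.12). The second probe set of MRPS18B was at -0.41, opposite in sign to the brightest one. With arrays centred on their median MRPS18B was at -0.033, so its sign depended on the scaling too.

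Probe sets of one gene often disagreed in sign. The 75 genes had 140 probe sets, and 38 genes had only 1. Of the 37 genes with several, 14 had the same sign on all of them. Of the 65 probe sets that were not the brightest, 40 had the sign of the brightest and 8 were below the level filter. Examples of wide disagreement were MRPS14 and MRPS25, where the disagreeing probe sets were dimmer. MRPS14 was at 0.046 on the brightest probe set (mean log2 signal 9.67) and -0.83 on the other (5.57). MRPS25 was at 0.11 on the brightest (8.74) and at -0.58 and -0.63 on the other 2 (6.96 and 6.45). MRPS14 and MRPS25 were named after their values were seen.

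MRPS30, once described as pro-apoptotic, had 3 probe sets that shared a sign but differed in size. Its brightest probe set was at 10.67 and 10.90 in CD133+ cells against 10.87 and 10.83 in CD133- cells, which overlap, with a difference of -0.062 (95% interval -0.29 to 0.16). The other 2 probe sets did not overlap between the clones, where 21.2% of all genes tested were lower with no overlap. One was at 6.82 and 6.90 against 7.28 and 7.28 (difference -0.42) and the other at 6.73 and 6.40 against 7.48 and 6.83 (difference -0.59).

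Several genes with large differences had chromosome neighbours that differed the same way. For each of the 75 genes the median difference was taken over the 10 nearest tested genes on each side, by their order in the RefSeq table and with the ribosomal protein genes themselves left out. The 20 neighbours of MRPS27 on chromosome 5 had a median of -0.50, with 18 below 0 and 4 called lower. Those of MRPL44 on chromosome 2 had a median of -0.40, with 15 below 0 and 5 called lower. Those of MRPL32 on chromosome 7 had a median of 0.57, with 20 above 0 and 7 called higher. The neighbours of MRPS30 on chromosome 5 also had a low median, -0.38, with 4 called lower. Over all genes tested 2.38% were called lower and 1.36% higher, and 9254 of 15820 differences were above 0.

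Most neighbourhoods lay closer to 0, and the quartiles of the 75 neighbour medians were -0.0088 and 0.16. MRPL19 on chromosome 2 and MRPL20 on chromosome 1 had lower signals in CD133+ cells beside neighbours at 0.042 and 0.17, and MRPS17 on chromosome 7 had neighbours at 0.13. Across the 75 genes the difference of a gene and the median of its neighbours had a Pearson r of 0.55 and a Spearman rho of 0.32, as a description, since neighbouring genes share their neighbours. Without the 2 genes farthest out on the neighbour axis r was 0.41, and without the 6 farthest it was 0.17, so the relation rested on a few genes. The 14 genes on chromosomes 2, 5 and 7, which were singled out after the data were seen, held all of the 3 lowest and the 2 highest differences, and the 61 genes elsewhere ran from -0.38 to 0.29.

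**Figure D3:**
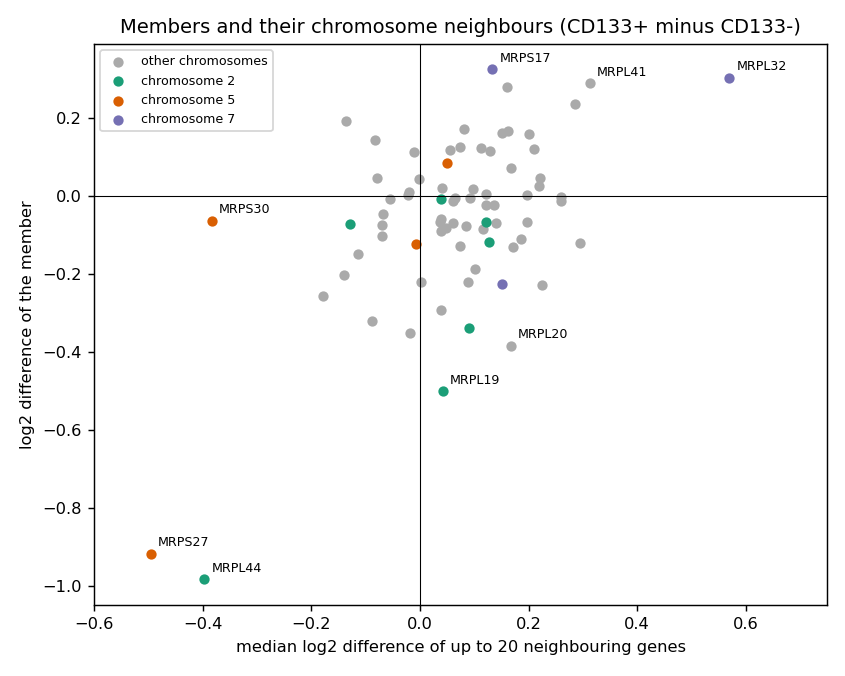
Log2 difference of each of the 75 genes (y axis) against the median log2 difference of its up to 20 neighbouring genes on the chromosome (x axis), with chromosomes 2, 5 and 7 in colour. MRPS27 and MRPL44 lie at the lower left and MRPL32 at the far right, while most genes lie near the centre.

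Related families had medians near 0 too. The 61 cytosolic ribosomal protein genes tested had a median difference of -0.019 with 0 called higher and 1 lower, and quartiles of -0.076 and 0.026. The 79 nuclear subunits of oxidative phosphorylation, several of which assemble with mitochondrially made partners, had a median of -0.011 with 0 called higher and 3 lower, and quartiles of -0.11 and 0.099. The difference between these families was not tested.

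**Figure D4:**
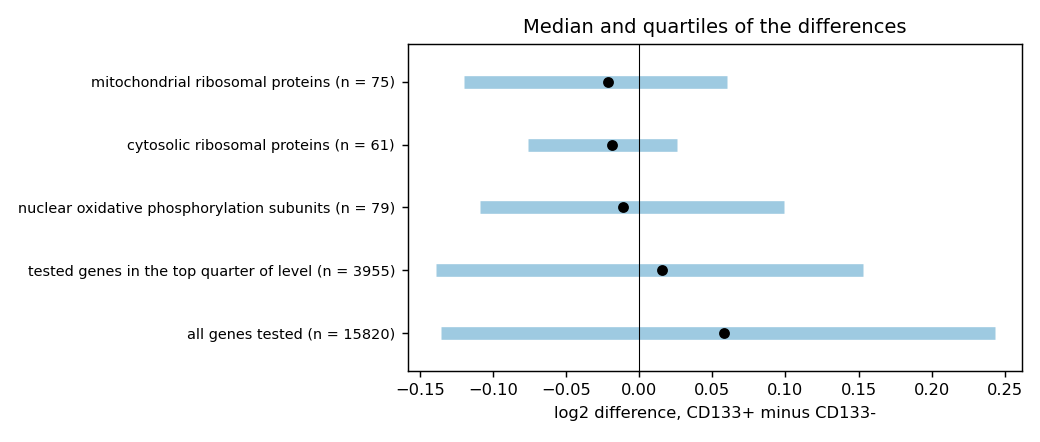
Median (dot) and range between the quartiles (bar) of the log2 differences, CD133+ minus CD133-, for 3 gene families, for the 3955 tested genes with the highest signal and for all genes tested. The 3 families have medians between -0.022 and -0.011 and narrower bars than all genes.

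Of further genes listed as ribosome subunits under other symbols, 5 were tested and 1 was called, beside 3.74% of all genes tested. KGD4, once named MRPS36 and now placed in the alpha-ketoglutarate dehydrogenase complex, fell. It was at 9.58 and 9.74 in CD133+ cells against 10.34 and 10.42 in CD133- cells. The difference was -0.72 (SE 0.098, limma adjusted p = 0.0118). Like MRPS27 it is on chromosome 5, and its 20 neighbours had a median of -0.60 with 8 called lower. DAP3, a GTP-binding small-subunit protein, was at -0.082, and PTCD3, another pentatricopeptide-repeat protein of the small subunit, at 0.092.

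Of 25 genes that build and modify the ribosome, 1 rose and 2 fell, beside 1.36% called higher and 2.38% called lower over all genes tested. TFB1M, the methyltransferase that modifies the small-subunit ribosomal RNA, was at 8.66 and 8.59 in CD133+ cells against 9.24 and 9.09 in CD133- cells. The difference was -0.54 (SE 0.11, limma adjusted p = 0.0418). FASTKD2, an RNA-binding factor for large-subunit assembly, was at 6.79 and 6.45 against 7.63 and 7.52, a difference of -0.96 (SE 0.19, adjusted p = 0.0332). MALSU1, a late factor of large-subunit assembly, was at 10.08 and 10.26 against 9.65 and 9.62, a difference of 0.53 (SE 0.10, adjusted p = 0.0288). The clones did not overlap in these 3 genes, where 51.6% of all genes tested did not overlap in either direction. As they were picked by their calls on the same arrays, this adds no separate support.

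Of 12 mitochondrial translation factors, 0 were called at a limma adjusted p under 0.05 and 1 had an unadjusted p under 0.05. Over all genes tested those shares were 3.74% and 20.7%. The smallest p were those of MTIF2, an initiation factor (-0.25, SE 0.094, adjusted p = 0.181), and MTRF1, a release factor homologue (-0.37, SE 0.17, adjusted p = 0.267). Of 18 mitochondrial aminoacyl-tRNA synthetases and related enzymes, MARS2, which charges methionine, fell, with a difference of -0.998 (SE 0.21, limma adjusted p = 0.0426) and 0 rose. Of 23 genes for mitochondrial DNA transcription and RNA stability, FASTKD1, an RNA-binding regulator, fell by 0.69 (SE 0.12, adjusted p = 0.0253) and 0 rose. Of 11 genes for insertion and quality control of mitochondrial products, HSPE1, the chaperonin cofactor, fell by 0.63 (SE 0.11, limma adjusted p = 0.0254) and 0 rose. The shares called were 5.56% of the synthetases and related enzymes, 4.35% of the transcription and RNA stability genes and 9.09% of the quality control genes. Among all genes tested 3.74% were called, and among the 3955 bright genes 7.08%.

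Among 13 regulators of mitochondrial biogenesis tested, 3 fell (2.38% of all genes were called lower) and 0 rose, and the median was -0.21. YY1 was at 10.58 and 10.49 in CD133+ cells against 11.25 and 10.99 in CD133- cells. The difference was -0.58 (SE 0.10, limma adjusted p = 0.0245). GABPA, the DNA-binding subunit of the ETS factor GABP, was at 5.93 and 6.15 against 7.05 and 6.87, a difference of -0.91 (SE 0.20, adjusted p = 0.0462). CREB1, a cyclic AMP-responsive factor, was at 7.72 and 7.94 against 8.65 and 8.61, a difference of -0.80 (SE 0.14, adjusted p = 0.0215). The clones did not overlap in these 3 genes, where 21.2% of all genes tested were lower with no overlap. As they were picked by their calls on the same arrays, this adds no separate support. The medians of the genes with YY1 or ETS letters in their windows stand above, and no relation to these factors was tested. All 3 lost their call when probe sets were averaged, YY1 at -0.082 (limma adjusted p = 0.823), CREB1 at -0.45 (adjusted p = 0.313) and GABPA at -0.66 (adjusted p = 0.103). GABPA was also not called in the values as deposited.

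Of the 182 genes made up of the 75 and the related lists, 11 were called (6.04%). Among all genes tested 3.74% were called, and among the 3955 bright genes 7.08%. The 182 genes had a median at the 85.8 percentile of signal. Of the 11 called genes, 8 lay on chromosomes 2, 5 and 7, which hold 39 of the 182. Over all genes with a chromosome in the RefSeq table, these 3 chromosomes held 15.6% of those tested and 42.0% of those called. MARS2, FASTKD1, FASTKD2, HSPE1 and CREB1 are on chromosome 2, beside neighbours with medians from -0.54 to -0.21, and MALSU1 is on chromosome 7 beside neighbours at 0.21. TFB1M, YY1 and GABPA are on chromosomes 6, 14 and 21, where their neighbours had medians of 0.058, 0.19 and -0.11. The 10 called genes other than MRPS27 all lost their call without CD133- replicate 1, with limma adjusted p from 0.0572 to 0.322 and 0.708% of all genes called, and 8 of them lost it without CD133- replicate 2. All 10 also lost it without the variance trend (limma adjusted p from 0.0818 to 0.146), where only 0.107% of all genes were called. When probe sets were averaged, where 1.38% of all genes were called, 8 lost it and KGD4 and FASTKD1 kept it. MALSU1 was then at 0.17 and TFB1M at -0.31.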

How the data were processed

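For each of 4 arrays the authors deposited log2 signals of 54675 probe sets (range 2.52 to 14.57, from which the scale was read), made with Affymetrix Expression Console per the submitters' processing notes. How background and normalization were handled is not given in the sources used here. Array medians spanned 0.144, above the limit of 0.1, so the deposited values were quantile-normalized, which removes any difference in overall distribution. Probe sets naming 1 gene (41091) were taken from the platform annotation, with names, chromosomes and gene order from RefSeq (GRCh38.p14, 19735 genes matched by gene ID). The 20% of genes with the lowest mean (below 3.75) were left out.

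limma 3.58.1 (R 4.3.3) compared the clones (lmFit, eBayes with trend, prior degrees of freedom 6.27), and the code was tested on simulated data. An exact two-sided permutation test of 2 arrays against 2 cannot go below 0.333, so calls rest on variance shared across genes, and the number of arrays limits the precision. Tables and motif searches used Python 3.11.15. The genes and lists were chosen with earlier results of these data known. Named genes were all called ones, the 8 most positive and 8 most negative differences, MRPS18A, MRPS18B, MRPS18C, MRPS30, MRPL12 and MRPL58, and in each related list the called genes (up to 4) or otherwise the 2 with the smallest p. Promoter windows of MRPL10, MRPL13, MRPL15, MRPL2, MRPL21, MRPL23, MRPL35 and MRPS28 were not used here. Alternatives changed the level filter, scaling, variance model, probe-set rule, replicate block and arrays.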

Additional observations from a re-analysis of the deposited data

How the results depend on the processing

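The count of 1 called mitochondrial ribosomal protein gene did not move with the level filter, the scaling or robust variances. It was 0 without the variance trend and 0 when probe sets of a gene were averaged, and it ran from 1 to 5 when 1 array was left out, where the lone array of a clone is assumed to vary like the pair of the other clone. Over all genes tested 0.107% were called without the variance trend and 1.38% with averaged probe sets. At such low shares few calls could be found among 75 genes, so these counts of 0 say little about them. With the replicate number as a block the count among the 75 genes was 12, 3 higher and 9 lower, where 19.2% of all genes were called. Same-numbered arrays deviated together (r = 0.43 across genes). With 2 numbers and no label saying what a number marks, it cannot be told what these arrays share beyond the number. The median over the 75 genes was -0.15 with centred arrays and between -0.088 and 0.039 with 1 array left out. Signs turned for MRPS18B with centred arrays (-0.033) and with the mean of its probe sets (-0.17), and for MRPL12 with the mean of its probe sets (0.065). With 1 array left out, MRPL12 ran from -0.27 to 0.031, MRPS18A from -0.27 to 0.12 and MRPS30 from -0.17 to 0.050. Of 276 combinations of a named gene (PROM1 included) and an alternative, 252 kept direction and side of the threshold, 15 gained a call, 2 lost it and 7 turned sign. The level filters, variance models and replicate block left each difference as it was, so direction could not change there. Averaging probe sets likewise left the difference of a gene with 1 probe set as it was. The count of 252 is therefore no measure of how stable the directions were.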

Other observations

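MRPS24 and MRPL53 are represented only by probe sets that name another gene as well, so they were not counted above. The probe set for MRPS24 and its readthrough transcript URGCP-MRPS24 was at 11.33 and 11.37 in CD133+ cells against 10.97 and 11.07 in CD133- cells, a difference of 0.33 with no overlap. The probe set shared by MRPL53 and CCDC142 was at 9.46 and 9.45 against 9.55 and 9.73, a difference of -0.19. A probe set shared by MRPL51 and SPTLC1 was at 9.64 and 9.64 against 9.51 and 9.51, a difference of 0.13, beside 0.16 on the probe set of MRPL51 alone.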
